A study of Mus musculus with 2 samples.

Results

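The DNA replication machinery was examined as 45 genes that encode the factors which mark, license and unwind replication origins, copy the DNA and supply its precursors. No measured value enters the rule for its members, but they were chosen with earlier results of these data known. A gene was found on the array when a spot carried its symbol and an mRNA accession of the curated NM series. By this rule 43 of the 45 genes were found, among 18181 coding genes, and they were represented by 44 of 18743 coding mRNAs because Gins1 had 2 accessions. Rpa1 and Rrm2 carried other kinds of accession and are described apart at the end.

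The measurements came from NIH3T3 cells, a mouse fibroblast line, in a pair of conditions. Control cells were untreated, and stressed cells received 10 µM thapsigargin, which blocks the calcium pump of the endoplasmic reticulum, for 3 h. RNA was separated on a 10 to 40% sucrose gradient into RNA bound to polysomes (P) and a pool of free RNA and monosomes (FM), and 300 ng in total was labelled, P with Cy3 and FM with Cy5. By the study's methods, labelling kept the proportion of RNA in the fractions. The labelled RNA thus held more P than FM in control cells and more FM than P under stress. RNA of 3 preparations was pooled for 1 two-colour array per condition, so the conditions are compared without replicates and without p-values.

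Replication starts at origins bound by the origin recognition complex (ORC). Cdc6 and Cdt1 load the ring-shaped MCM helicase there, and Cdc45 and the GINS complex then join MCM to form the active helicase. Polymerase alpha-primase lays down primers, polymerases epsilon and delta extend them on the leading and lagging strands with the sliding clamp PCNA, and Fen1 and Lig1 join the lagging-strand fragments. Transcription of many of these genes is driven by E2F factors when cells enter S phase.

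The measure of translation efficiency, log2 P/FM, divides the P by the FM signal after background subtraction, so that 0 stands for equal signals. The measure of abundance, A, averages both fractions on the log2 scale. All 44 mRNAs had A above 4.5 on both arrays, as did 10033 coding mRNAs in all. The 44 were read by 55 probes on 64 spots, none of them saturated or an outlier, and 54 probes were well above background in all 4 signals. The exception was 1 of the 3 probes of Orc3l. Most members rested on little: 36 had a single spot, and only 7 had different probes. Across the 3438 coding mRNAs with different probes, the median standard deviation (SD) between probes of log2 P/FM was 0.29 on the control and 0.28 on the stress array, and that of the change was 0.32. These SDs cover probe and spot error and not the spread between preparations. The fibroblast markers Col1a1, Col1a2, Vim, Fn1, Pdgfrb and Thy1 were well above background in every signal. Ptprc, Epcam, Cdh1 and Pecam1, which mark leukocytes, epithelium and endothelium, were not, whereas the leukocyte marker Cd3e was, with A of 6.06 and 5.93.

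Of the 55 probes, 12 matched stretches of the mm9 genome that were longer than the probe by more than 60 bases, so these probes bridged at least 1 splice junction. The annotation of their exons as coding or not was not used here. A set of 5 is shown because they read mRNAs with different courses under stress: Orc1l (chr4:108284772-108285679, plus strand), Cdc45l (chr16:18793399-18794880, minus strand), Pcna (chr2:132075420-132075557, minus strand), Pole2 (chr12:70307465-70308864, minus strand) and Rfc3 (chr5:152448247-152450045, minus strand). Each is written 5′ to 3′ in the sense of the mRNA.
Orc1l: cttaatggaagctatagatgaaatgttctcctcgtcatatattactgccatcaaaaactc
Cdc45l: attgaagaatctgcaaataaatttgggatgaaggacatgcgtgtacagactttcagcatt
Pcna: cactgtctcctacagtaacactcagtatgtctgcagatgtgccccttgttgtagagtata
Pole2: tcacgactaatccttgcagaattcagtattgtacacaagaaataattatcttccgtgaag
Rfc3: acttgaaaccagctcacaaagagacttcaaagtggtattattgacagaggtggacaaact

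In growing cells the replication mRNAs were found mostly on polysomes. Their log2 P/FM ranged from -1.24 for Pole4 to 2.53 for one Gins1 accession, with a median of 0.81, against 0.34 over all coding mRNAs. A total of 36 of the 44 (81.8%) were above 0, against 63.5% of all, and 34 were above the median of all mRNAs. Under thapsigargin the median was 0.03 for the replication mRNAs and -0.29 for all, and 22 members were above 0, against 37.4% of all. The median change was -0.80 for the members and -0.71 for all coding mRNAs, and 19 of the 44 members lay above the latter value. The members therefore differed by -0.09 from the array as a whole. The sign of their median change depended on scaling: after both arrays were shifted to the median of the 10 spike-in probes, -0.40 on the control and -2.95 on the stress array, it was 1.75 for the members and 1.84 for all. Changes below are on the unscaled arrays and are read against the -0.71 of all mRNAs. That median itself depended on signal. Over all coding mRNAs it was -0.22 at a mean A of both arrays from 5.5 to 7, and -1.71 from 11 to 13. In the latter range the 12 members had a median of -0.98, and 9 of them lay above -1.71. Across all ranges of mean A, 23 of the 44 members lay above the median of their range.

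This median hid a wide range, from -3.36 to 1.91. The mRNAs were sorted into the 3 classes of the study, by its thresholds. An mRNA was sensitive if log2 P/FM dropped by at least 0.8. It was resistant if both arrays gave 0.8 or above, and inducible if a control value not above 0 was followed by a gain of at least 1. Sensitive members numbered 24 of 44 (54.5%), against 47.0% of all coding mRNAs. Resistant members numbered 11 (25%), from 10 genes, against 3.00% of all. The resistant 10 genes were Cdc6, Mcm2, Mcm3, Cdc45l, Gins1, Pola2, Pcna, Fen1, Lig1 and Rrm1. The study lists DNA replication among the terms of its resistant class, which it defined in part on these arrays, so the count is not independent evidence about the group. It also names this term for the resistant class of its human Jurkat cells in particular, and reports qPCR for the resistance of Lig1. Both Gins1 accessions were resistant and sensitive at once, since they fell from very high control values. Inducible members were Pola1 and Pole (4.55%), against 8.86% of all. The change was 0 or higher in 13 members (29.5%), against 29.3% of all.

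**Figure D1:**
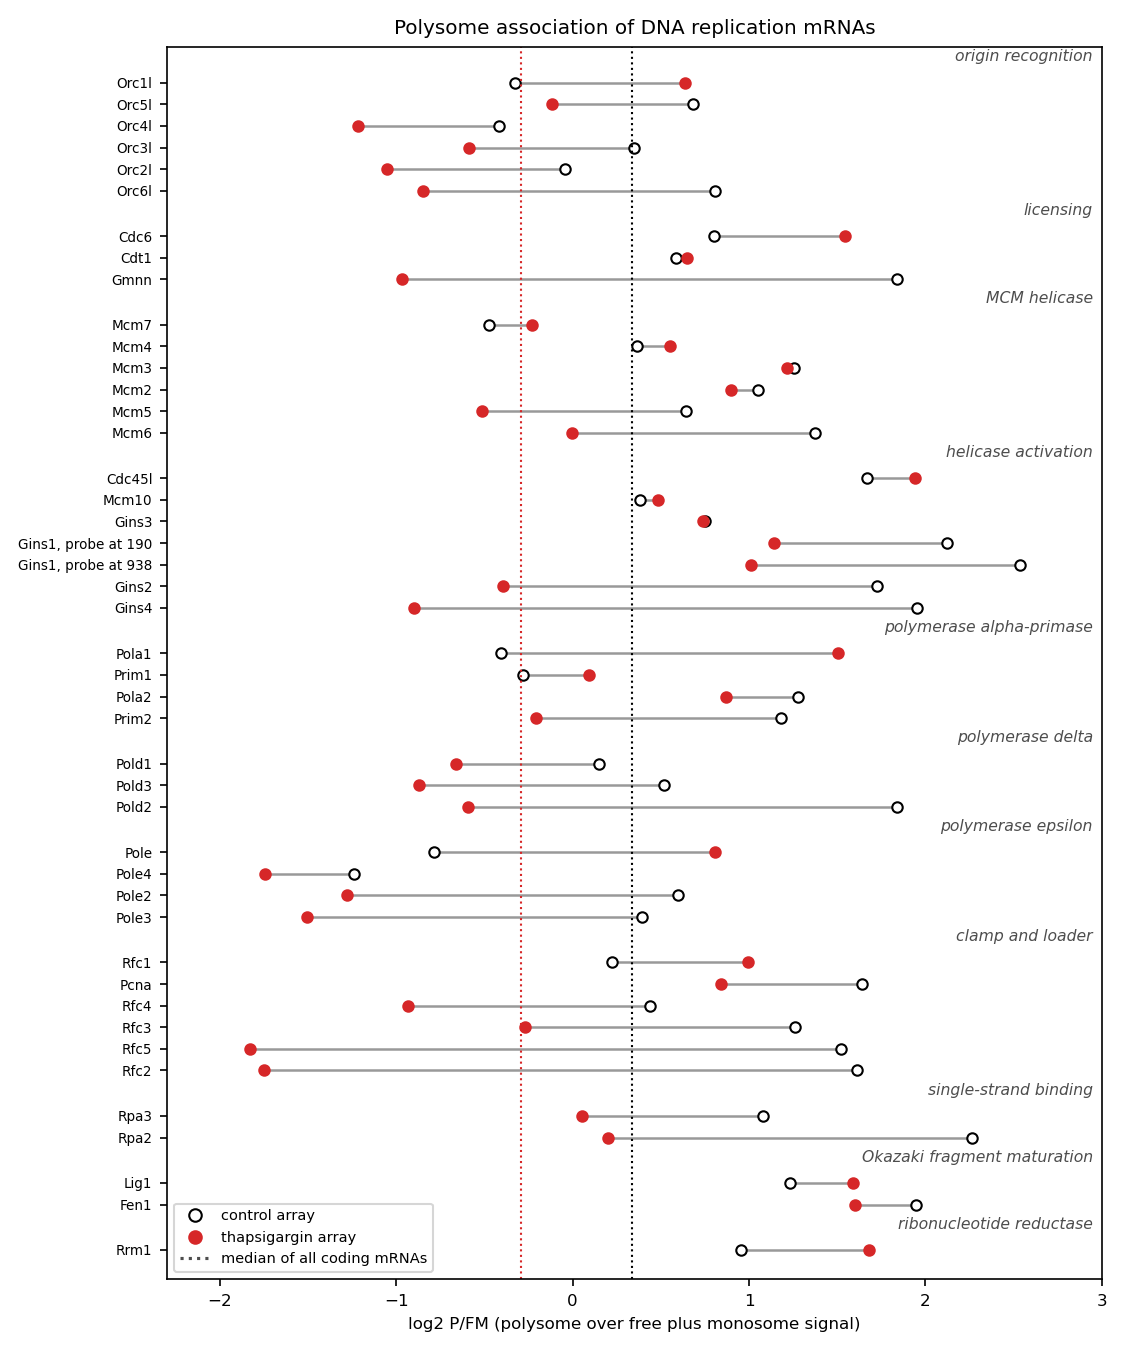
Log2 P/FM (x axis) of each replication mRNA on the control array (open circles) and the thapsigargin array (red circles), grouped by role, 1 array per condition, with dotted lines at the medians of all coding mRNAs (0.34 and -0.29). The lowest changes were -3.36 for Rfc2 and -3.35 for Rfc5, and the highest 1.91 for Pola1 and 1.60 for Pole.

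Several members lay close to a threshold. Orc4l and Orc5l, at -0.8003 and -0.8001, were just inside the sensitive class, and Pcna, at -0.7998, was just outside it. In the resistant class the lowest value of either array was 0.80 for Cdc6, followed by 0.84 for Pcna and 0.87 for Pola2. Gins3 (0.74) and Cdt1 (0.58) were the nearest below the limit. Orc1l, with a change of 0.97, was just short of the inducible class.

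ORC, which binds origins, moved with the array, with 1 exception. Orc1l, its ATP-driven subunit, had a P signal of 88.5 in control and 161.7 in stressed cells, while its FM signal was 111 and 103.9. Its log2 P/FM was thus -0.33 in control and 0.64 under stress, from the 25.1 to the 85.0 percentile of all coding mRNAs. Orc2l to Orc6l were all sensitive, with changes between -1.66 for Orc6l and -0.80 for Orc5l. With normexp background correction those of Orc3l and Orc5l turned to 0.081 and 0.35. In Orc2l the signal increased in both fractions, from 300.6 to 539.9 in P and from 310.2 to 1120 in FM, and it was the gain in FM that set the ratio. The 3 probes of Orc4l disagreed on its level, with an SD of 1.27 in control cells, but not on its change, with an SD of 0.09.

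The licensing factors split. Cdc6, the loader of the helicase, had P signals of 103 and 365.6 and FM signals of 59.05 and 125.5, in control and stressed cells. Its log2 P/FM of 0.80 and 1.54 gave a change of 0.74 ± 0.31 (SD of 2 probes), and its A was higher by 1.46, the most of any member. Cdt1, its partner, had log2 P/FM of 0.58 and 0.65, a change of 0.06, with P signals of 4569 and 9068 and FM signals of 3048 and 5789. The change of Cdt1 was smaller than the 0.32 SD between probes. Gmnn, which encodes geminin, the inhibitor of Cdt1, fell. Its P signal was 3350 in control and 2163 in stressed cells and its FM signal 936.6 and 4228, the largest gain in FM of any member at 4.51-fold. Its log2 P/FM fell from 1.84 to -0.97, a change of -2.81 at the 2.94 percentile of all mRNAs.

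The 6 subunits of the MCM helicase, which form 1 ring in equal numbers, did not share a course. Mcm2, Mcm3, Mcm4 and Mcm7 changed by -0.16, -0.04, 0.19 and 0.24, each less than the 0.32 SD between probes. Mcm5 and Mcm6 fell by 1.15 and 1.38. Mcm3, a resistant mRNA, had P signals of 411.8 and 794 and FM signals of 172.2 and 342.5, so that both fractions gained alike. Mcm2, also resistant, behaved the same way, with 814.6 and 1491 in P and 393.1 and 801.7 in FM. Mcm4 had 2411 and 5951 in P and 1874 and 4058 in FM. Mcm7 had 3995 and 5658 in P against 5544 and 6636 in FM, so that its log2 P/FM stayed below 0 on both arrays. Mcm6 was the brightest member on the stress array, and its P signal was 7517 in control and 10090 in stressed cells while FM went from 2893 to 10110. After loess normalization within arrays, the changes of Mcm5 and Mcm6 turned to 0.30 and 0.38, so their direction depended on the processing.

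The factors that turn MCM into a working helicase ranged from the most resistant to some of the most sensitive members. Cdc45l had the highest log2 P/FM of all members under stress, 1.94, at the 99.6 percentile of coding mRNAs, after 1.67 in control. Its P signals were 141.7 and 206.4 and its FM signals 44.5 and 53.7. The GINS complex, its partner, was uneven. Gins3 had P signals of 279.9 and 512.5 and FM signals of 166.5 and 307.5, for log2 P/FM of 0.75 and 0.74. Gins1 was read by a probe for each accession, and log2 P/FM went from 2.12 to 1.14 in one and from 2.53 to 1.01 in the other. Its P signals were 416.3 and 246.5 with the first probe and 1178 and 825.4 with the second, while FM went from 95.4 to 111.5 and from 203.3 to 410.1. Gins2 and Gins4 were sensitive, with changes of -2.12 and -2.85. For Gins4, P went from 1587 to 764.6 and FM from 410.4 to 1427. Mcm10, a factor that helps to start unwinding, kept log2 P/FM of 0.38 and 0.48, with P signals of 1440 and 3410 and FM signals of 1106 and 2441.

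Polymerase alpha-primase, the only polymerase that can begin a strand, contained the largest rise. Pola1, its catalytic subunit, had P signals of 246.9 in control and 1121 in stressed cells, a 4.54-fold gain, and FM signals of 326.9 and 395.6. Its log2 P/FM was -0.40 in control cells and rose by 1.91, from the 23.0 to the 98.2 percentile of all coding mRNAs. Pola2, its regulatory subunit, was resistant, with 89.7 and 116.4 in P and 37.0 and 63.7 in FM. Prim1, the primase itself, had log2 P/FM of -0.28 and 0.09, with 887 and 1206 in P and 1078 and 1130 in FM. Prim2, the other primase subunit, fell by 1.39, although its P signal was 1.55-fold higher, because FM was 4.05-fold higher.

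The same contrast within a complex was seen for polymerase epsilon. Pole, its catalytic subunit, had P signals of 303 and 1259 and FM signals of 522.8 and 718.2. Log2 P/FM rose from -0.79 to 0.81. Pole2 and Pole3 fell by 1.87 and 1.90. For the remaining subunit, Pole4, the mean change was -0.51, but its 3 probes ranged from -1.23 to 0.72 (SD 1.07), so no direction can be given. In polymerase delta all 3 members were sensitive. Pold1, the catalytic subunit, changed by -0.81 ± 0.06 (SD of 2 probes), Pold3 by -1.39 ± 0.21 (SD of 3 probes) and Pold2 by -2.44, with P signals of 1127 and 459.1 and FM signals of 314.5 and 693.6. The change of Pold1 turned to 0.29 with the processed signals and 0.36 with loess.

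The clamp and its loader separated too. Pcna was the best measured member, with 10 spots of 1 probe, and its log2 P/FM was 1.64 ± 0.10 (SD of 10 spots) in control and 0.84 ± 0.08 in stressed cells. The spots ranged from 1.55 to 1.89 in control and from 0.75 to 1.00 under stress and did not overlap, and the change was -0.80 ± 0.06. They share 1 array per condition, so their SDs hold no spread between preparations. Relative to the median of all coding mRNAs the change of Pcna was only -0.09, at the 47.1 percentile. The P signal was 4954 and 4831, while FM was 1588 and 2696, so the lower ratio went with a higher FM signal. With the processed signals and with loess, the change of Pcna turned to 0.69 and 0.66, so its direction depended on the processing. Replication factor C loads the clamp and has 1 large and 4 small subunits. Rfc1, the large subunit, had P signals of 631.7 and 1314 and FM signals of 541 and 660, and log2 P/FM of 0.22 and 0.99. The small subunits Rfc2 to Rfc5 were all sensitive, with changes of -3.36 ± 0.26 (SD of 2 probes), -1.53, -1.38 and -3.35. Rfc2 and Rfc5 had the lowest changes of any member, at the 0.588 and 0.628 percentiles of all coding mRNAs. For Rfc5, P went from 5554 to 1697 and FM from 1937 to 6042, an almost exact exchange of the fractions. Rfc2 went from 5135 to 1406 in P and from 1678 to 4733 in FM.

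Rpa2 and Rpa3, which coat single-stranded DNA with Rpa1, fell by 2.06 and 1.03. Both enzymes of Okazaki fragment maturation were resistant. Fen1, the flap endonuclease, had log2 P/FM of 1.95 and 1.60, with P signals of 772.9 and 710.8 and FM signals of 200.6 and 234.2. Lig1, the ligase that seals the nicks, had log2 P/FM of 1.23 and 1.59, with 2605 and 5692 in P and 1108 and 1888 in FM. Rrm1, the large subunit of ribonucleotide reductase, which makes deoxynucleotides, gained in the same way. Its P signals were 2125 and 6434, a gain of 3.03-fold, and its FM signals 1097 and 2004, for log2 P/FM of 0.95 and 1.68.

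The largest subunit had the highest change of its complex in 4 of 7 complexes, a pattern noticed after the values were seen. In ORC, Orc1l exceeded the next subunit by 1.77, and in replication factor C Rfc1 did so by 2.15. The gap was 1.53 in polymerase alpha-primase and 2.10 in polymerase epsilon. In polymerase delta, Pold1 was exceeded by the small subunit Pold4, which is outside the list and changed by -0.56. In MCM, Mcm2 was exceeded by Mcm7, and in replication protein A, Rpa1 was exceeded by Rpa3. Rpa1 was read there by the clone spot described at the end.

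The ratio alone does not say which fraction moved. The FM signal was higher under stress in 43 of the 44 members, and in 86.6% of all coding mRNAs, with a median change of 1.06 on the log2 scale, against 0.72 over all. The P signal was higher in 26 (59.1%), against 50.7% of all, with a median change of 0.42, against 0.016. Both fractions gained in 25 members, 18 gained in FM and lost in P, and Orc1l alone gained in P and was lower in FM, there by only 0.10. None was lower in both. Of the 24 sensitive mRNAs, 16 had a lower P signal under stress and 8, among them Orc2l, Mcm6 and Prim2, a higher one. Signals are relative to the 300 ng of RNA labelled, of which FM was a larger and P a smaller part under stress. How far this input set the changes of either signal was not tested. In lysates of a whole culture, fewer cells of a type and less RNA per cell cannot be told apart.

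**Figure D2:**
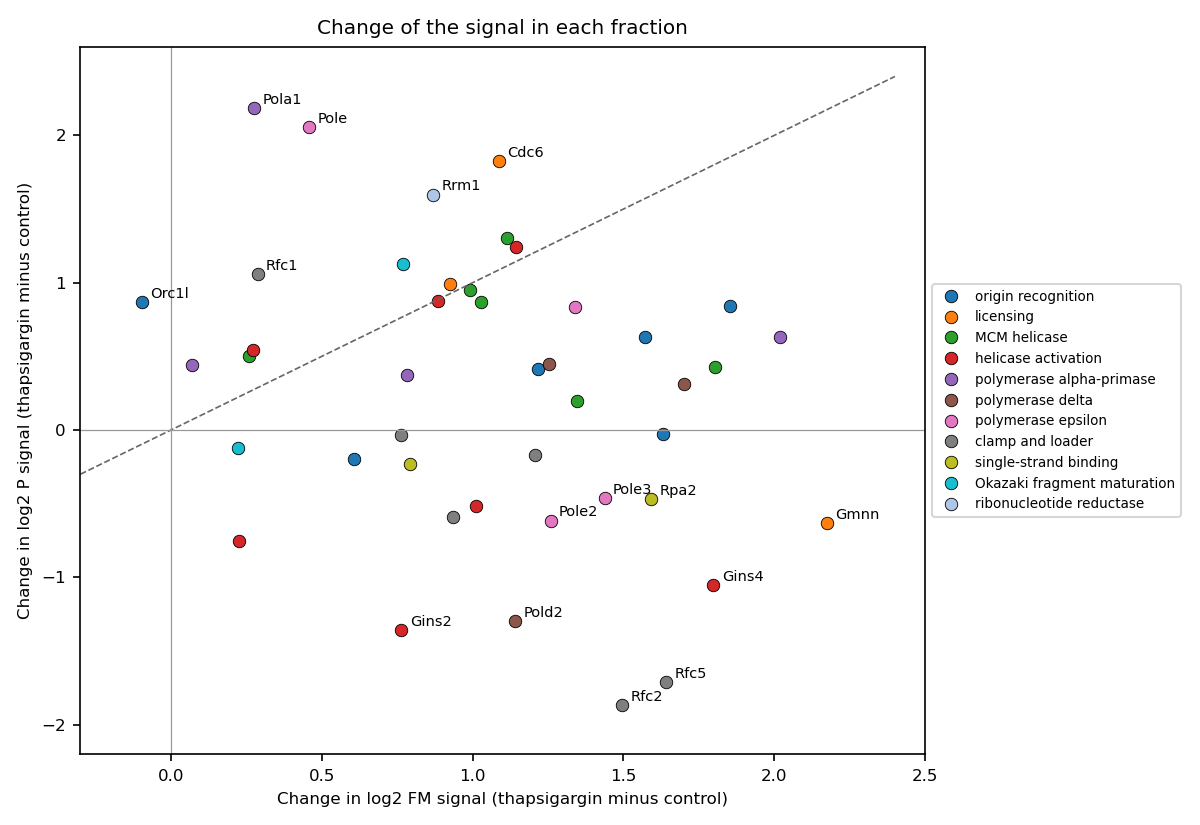
Change of the FM signal (x axis) and of the P signal (y axis) from control to thapsigargin, both log2, for each of the 44 replication mRNAs coloured by role, with a dashed line where both changed equally. All but 1 mRNA lie right of 0 on the x axis, and 26 lie above 0 on the y axis.

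By A, most replication mRNAs were more abundant under stress than in control cells. A was higher in 39 of 44 members (88.6%), against 76.8% of all coding mRNAs, with a median change of 0.72, against 0.37 over all, and 30 members lay above the latter value. A was higher by 1 or more in 12 members (27.3%), against 11.7% of all coding mRNAs. These 12 were Cdc6, Orc2l, Prim2, Pole, Rrm1, Pola1, Mcm4, Mcm10, Mcm6, Orc3l, Pole4 and Pold3, so every role from origin recognition to precursor supply except the clamp, single-strand binding and fragment maturation was represented. For Pole4 the value averages probes that disagreed, with changes in A of 2.19, 0.94 and 0.13. The 5 members with lower A were Gins2, one Gins1 accession, Rfc2, Pold2 and Rfc5, by at most 0.30, and all of them were sensitive. The excess over all coding mRNAs was 0.35. Loess, centring of the arrays and spike-in scaling left it at 0.35. They keep A or shift all mRNAs alike, so they could not change it. In the other settings it ran from 0.28 to 1.59, the latter with normexp against all 18743 coding mRNAs on the array.

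**Figure D3:**
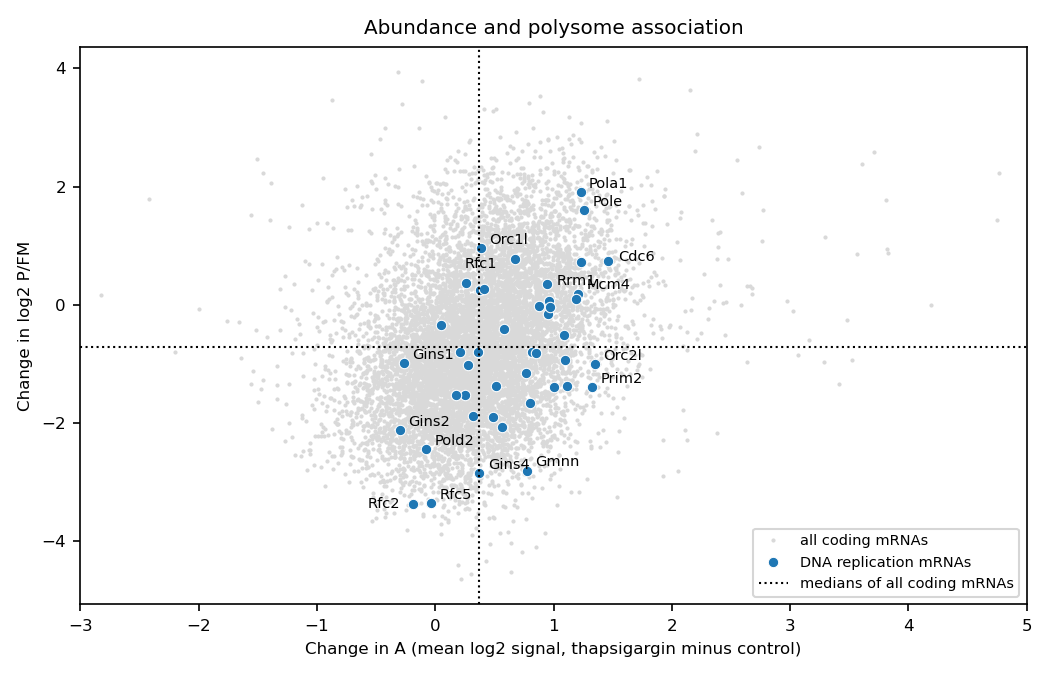
Change in A (x axis, log2) and change in log2 P/FM (y axis) for the replication mRNAs (blue) and all 10033 detected coding mRNAs (grey), with dotted lines at the medians of all, 0.37 and -0.71. Of the blue points, 30 lie right of the vertical line and 19 above the horizontal line.

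The promoters of the members were searched for E2F motifs. RefSeq windows (GRCm38.p6) from 250 bases before to 50 after the start were found for 37 of the 45 genes. Each of 4 octamers of the E2F consensus, TTTCCCGC, TTTCGCGC, TTTGCCGC and TTTGGCGC, was looked for on both strands. At least 1 was found in 16 of the 37 genes (43.2%), against 3.29% of 17492 protein-coding genes. There were 2 or more in 5 member genes (13.5%), against 0.154%, and overlapping octamers on opposite strands were counted separately. CCAAT was found in 23 of the 37 (62.2%), against 42.3% of protein-coding genes. The 16 members with an octamer had a median change in A of 0.95, and the 19 measured members without one had 0.52. Their median changes in log2 P/FM were -0.27 and -0.80. Median change in A also rose with probe position, described below, from 0.28 to 1.19 in members and from 0.10 to 0.56 in all coding mRNAs. The split by octamer was not adjusted for position. Many of these genes are known E2F targets, and the part of the octamers in any change was not tested.

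Windows from 5 of these promoters are shown to let the motif be seen, octamers in capitals. They lie upstream of the annotated start and are written on the gene's strand: Cdc6 at chr11:98907987-98908046 (plus), Mcm5 at chr8:75109330-75109389 (plus), Mcm6 at chr1:128359782-128359841 (minus), Orc1 at chr4:108579401-108579453 (plus) and Pola1 at chrX:93632260-93632319 (minus). In Mcm5 and Mcm6 a pair of octamers on opposite strands overlapped and reads as 1 run of capitals.
Cdc6: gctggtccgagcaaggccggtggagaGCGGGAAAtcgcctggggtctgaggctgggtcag
Mcm5: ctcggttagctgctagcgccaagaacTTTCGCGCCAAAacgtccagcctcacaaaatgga
Mcm6: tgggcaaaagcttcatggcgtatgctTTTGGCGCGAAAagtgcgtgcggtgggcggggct
Orc1: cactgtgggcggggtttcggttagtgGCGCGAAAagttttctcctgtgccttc
Pola1: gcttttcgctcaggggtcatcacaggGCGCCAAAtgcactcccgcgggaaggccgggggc
A was higher under stress in 39 of 44 members and in 76.8% of all coding mRNAs. It was higher in all 5 genes, by 1.46 for Cdc6, 0.77 for Mcm5, 1.11 for Mcm6, 0.39 for Orc1l and 1.23 for Pola1. Their log2 P/FM did not move together, with changes of 0.74, -1.15, -1.38, 0.97 and 1.91 in that order.

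The change in log2 P/FM followed where in the transcript the probe lay. The files give the base of the transcript at which each probe starts, and the probe nearest the 3′ end sets a lower bound on the length of the mRNA. The 9 members with a bound under 1000 bases, among them Gmnn, Gins4 and Pole3, had a median change of -1.53, and none was at 0 or higher. The 14 members from 1000 to 2000 bases had a median of -1.38, with 2 at 0 or higher. From 2000 to 3000 bases it was -0.03 with 5 of 12, and from 3000 bases up it was 0.19 with 6 of 9. All coding mRNAs followed the same order, with medians of -1.61, -1.10, -0.55 and 0.15. Across the 44 members, Pearson's r between log2 position and change was 0.56 and Spearman's rho 0.64, and across the 10033 coding mRNAs they were 0.51 and 0.54. Genes are not independent replicates, and the points share 1 pair of arrays, so these values are a description. Of the 44 members, 23 lay above the median change of all mRNAs in the same position range. The large subunits Pola1, Pole and Rfc1 had bounds of 5203, 7021 and 4544 bases, and the small subunits Rfc2 and Rfc5 had 1451 and 1581. Whether length, probe position or the protein encoded went with the change was not tested.

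**Figure D4:**
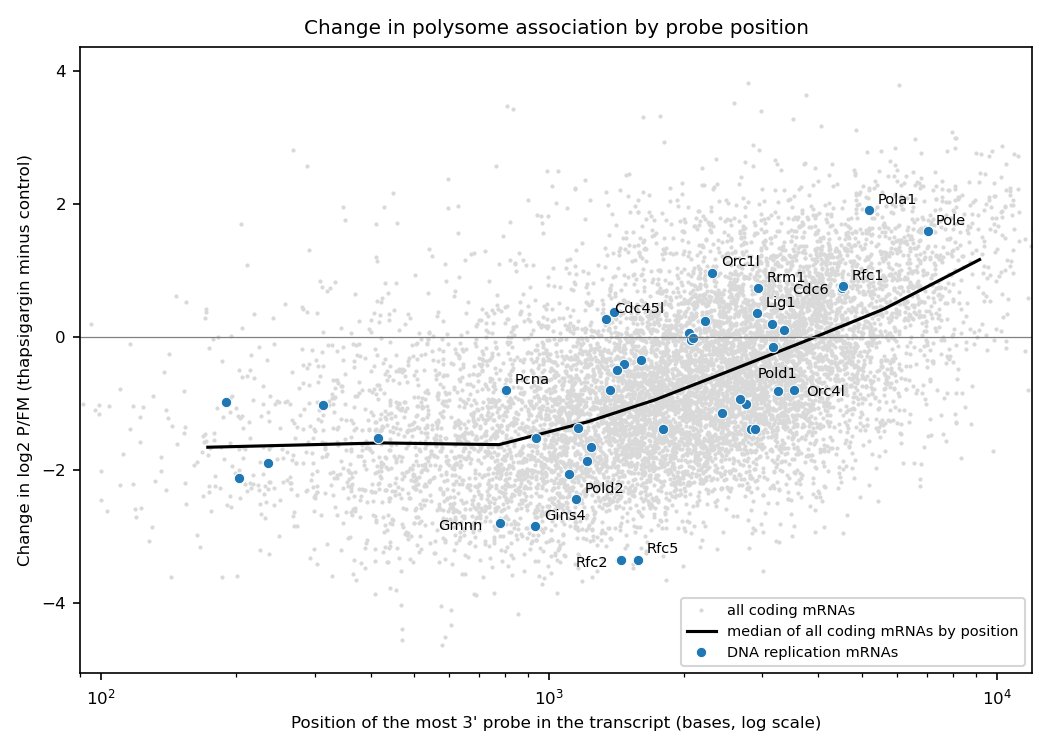
Change in log2 P/FM (y axis) against the position of the most 3′ probe in the transcript (x axis, bases, log scale) for the replication mRNAs (blue) and all coding mRNAs (grey, median as a black line). The 9 members below 1000 bases changed by -2.85 to -0.80, and 6 of 9 from 3000 bases up were at 0 or higher.

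Resistant members were found in every position range. There were 3 resistant members of 9, 3 of 14, 3 of 12 and 2 of 9 from the shortest to the longest range, while the shares among all coding mRNAs were 2.18%, 3.85%, 3.75% and 2.17%. In abundance, 34 of the 44 members lay above the median change in A of all mRNAs in the same range.

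Other genes of the pathway were taken from 4 further lists, to be read against the 47.0% sensitive, 3.00% resistant and 8.86% inducible among all coding mRNAs. The lists were not adjusted for probe position, which the change followed. Accessory replisome and firing factors had 23 detected mRNAs, with a median change of -0.11. Of these 6 were sensitive and none resistant. The inducible ones were Top2a (1.18), Cdc7 (1.29), Atad5 (1.81) and Rif1 (2.03), which encode a topoisomerase, the origin-firing kinase, a PCNA unloader and a regulator of replication timing. Their most 3′ probes lay at 4059, 2605, 6833 and 7826 bases. The RNase H2 subunits Rnaseh2a and Rnaseh2b, which remove ribonucleotides from DNA, changed by -2.35 and -2.80. Chromatin assembly at the fork had 10 mRNAs with a median change of -0.52. Among these, 5 were sensitive, led by the histone chaperones Asf1b (-2.37) and Chaf1b (-2.35), while Dnmt1, the maintenance DNA methyltransferase, had log2 P/FM of 0.48 and 1.58. Uhrf1, its partner, was resistant, with log2 P/FM of 1.14 and 1.44.

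Nucleotide supply had changes from -3.38 to -0.15 among its detected mRNAs. Of its 16 detected mRNAs, from 15 genes, 13 were sensitive and none changed by 0 or more, against 29.3% of all, with a median of -1.40. Nme1 and Nme2, nucleoside diphosphate kinases, changed by -3.38 and -3.14, and Tyms, thymidylate synthase, by -2.37. Their most 3′ probes lay at 944, 509 and 829 bases, and all coding mRNAs under 1000 bases had a median change of -1.61. Only Ppat, an early enzyme of purine synthesis, was resistant, with log2 P/FM of 1.22 and 1.07. The change of Rrm1, which works on the same precursors, was 0.73. The E2F and retinoblastoma list had 11 detected mRNAs with a median change of -0.67. E2f4 and Tfdp1 changed by -2.22 and -1.56, and E2f7, a repressor of E2F targets, was inducible at 1.07. The A of this list had a median change of 0.20, against 0.37 over all coding mRNAs. A was higher in 6 of its 11 mRNAs, against 76.8% of all.

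Rpa1 and Rrm2 were each read by 1 spot with a clone accession and do not enter the counts. Rpa1, the large single-strand binding subunit, had log2 P/FM of 1.49 in control and -0.30 in stressed cells, a change of -1.78. Its P signal was 7501 and 6825, and its FM signal 2678 and 8377. Rrm2, the small subunit of ribonucleotide reductase, had log2 P/FM of 1.05 and 1.23 and would meet the resistant limits. Its P signals were 1308 and 1166 and its FM signals 630.9 and 496.1, so unlike Rrm1 it was lower in both fractions under stress.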

How the data were processed

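Each of the 2 conditions had 1 two-colour array (P in Cy3, FM in Cy5), with RNA of 3 preparations pooled. Per the file headers, the deposited spot and background intensity values were extracted with Agilent Feature Extraction 10.7.1 and not normalized. The files also hold processed intensity values that this software background-subtracted and dye-normalized, and flags for each spot. The authors also deposited a table of log2 P/FM, background corrected and not normalized. Here each spot's mean signal was reduced by its median local background, and 0.5 was the lowest value allowed. Outlier spots (295) were left out, spots of a probe were averaged on the log2 scale, then probes of an accession. A signal given for a member is thus a geometric mean. Coding mRNAs with A above 4.5 on both arrays were used. No normalization was applied, as in the study.

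The members, the role groups and the other lists were chosen with earlier results of these data known. All members are accounted for. Those that were resistant or inducible, changed by 0 or more, or were among the 5 lowest changes were to be given with both signals. A few other members are given so after their values were seen. Probe sequences and positions are those in the files (mm9), promoters are from RefSeq, and a motif match in a window is a description. Protein sequences were not used here, so probes were not checked by translation. Alternatives were computed with R 4.3.3 and limma 3.58.1, the rest with Python 3.11.15, NumPy 2.4.6, pandas 2.3.3 and SciPy 1.17.1. The class thresholds were tested on simulated log2 ratios, and the averaging of probes on a small constructed example. The other steps were not tested in this way. The number of arrays limits the precision.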

Additional observations from a re-analysis of the deposited data

How the results depend on the processing

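No paired analysis was possible because each condition had 1 array. The unscaled values rest on background subtraction and on no scaling between arrays, and both matter. With normexp the median log2 P/FM of the members in control cells was 0.32 and their median change -0.43, or -0.77 relative to all coding mRNAs. The median change in A was then 0.11, and 12 members were sensitive, 4 resistant and 4 inducible. With the processed signals the median was 0.47 under stress, the median change -0.053, or 0.25 relative to all, and the change in A 0.35, with 13, 7 and 9 members in these classes. With loess the medians were 0.44 and 0.40, the change -0.073, with 11 sensitive and 9 inducible. With arrays centred, the control median was 0.47, the change -0.18 and the change in A 0.24, with 12 sensitive and 5 inducible. Without background subtraction the change relative to all was -0.50. In this setting and with normexp, all coding mRNAs were the 18743 on the array, against 10033 in the main setting. With the processed signals they were 12335. Shares and values relative to all in these settings therefore have a different background. With spike-in scaling the medians were 1.21 and 2.98 and the change 1.75, with 2 sensitive, 30 resistant and 5 inducible. The share of members that were resistant exceeded that of all coding mRNAs in each setting, from 9.09% against 0.507% with normexp to 68.2% against 47.4% with spike-in scaling. The cause of these shifts was not tested beyond the construction of each setting. By the study's methods, the share of P in the labelled RNA was lower under stress. How far centring, loess, the processed signals or spike-in scaling take this out was not tested.

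Directions turned for single members as follows. Among members whose change was at least 0.8 in size, it became, with processed signals and loess, 0.29 and 0.30 for Mcm5, 0.47 and 0.38 for Mcm6, and 0.29 and 0.36 for Pold1. With normexp it was 0.081 for Orc3l and 0.35 for Orc5l. With spike-in scaling, 26 of 43 genes turned, and positive values replaced negative ones for Gins1 (1.30), Gins2 (0.43), Mcm5 (1.40), Mcm6 (1.17), Orc2l (1.54), Orc3l (1.61), Orc4l (1.75), Orc5l (1.75), Orc6l (0.89), Pold1 (1.74), Pold2 (0.11), Pold3 (1.16), Pole2 (0.68), Pole3 (0.65), Prim2 (1.16), Rfc3 (1.02), Rfc4 (1.17), Rpa2 (0.49) and Rpa3 (1.52). Members whose change had been under 0.8 turned as well: Fen1, Gins3, Mcm2 and Mcm3 with normexp, processed signals, loess, arrays centred and spike-in scaling, Pole4 with all of these but normexp, Pola2 with normexp, arrays centred and spike-in scaling, and Pcna with processed signals (0.69), loess (0.66) and spike-in scaling (1.75). Without background subtraction Gins3 (0.061) and Mcm3 (0.024) turned. No direction turned with the authors' table or with another filter, unit or choice of probe. Low signals limit Orc3l, Orc5l, Cdc45l and Pola2, which had FM signals under 50 in control cells.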
